A study of Mus musculus with 24 samples.

Results

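Adm2, Stc2, Nupr1 and Gdf15 are 4 genes for secreted or stress-induced proteins that stood higher in mouse mammary tumours after 3 days of E7386 at 50 mg/kg, and for which the fitted excess over vehicle was smaller after 7 days, for Gdf15 by less than the standard error. They were selected on the measured TPM values of these 24 libraries: on 50 mg/kg against vehicle on each day and on the difference between the days. They are 4 of the 47729 genes in the deposited table and 4 of the 15736 genes kept for testing (at least 1 TPM in at least 4 libraries). TPM, the unit of the table, is a relative abundance corrected for transcript length. The selection rule read the TPM of every group, and its criteria used the 50 mg/kg and vehicle libraries. The values of the 4 genes in those libraries are therefore given as a description, with no test. Tests of the 4 genes at the lower dose, given below, are not independent of their choice.

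Spontaneous tumours of MMTV-Wnt1 mice (B6SJL-Tg(Wnt1)1Hev/J), whose transgene drives Wnt1 from the mouse mammary tumour virus promoter, were cut up and grown in C57BL/6J hosts to about 200 mm3, called day 1. All hosts therefore carried a Wnt1-driven tumour and kept their own immune and stromal cells; the age of the mice is not given in the labels. The mice were dosed by mouth, 2 times daily, with vehicle or with E7386 at 25 or 50 mg/kg. E7386 is known as an oral small molecule that interferes with β-catenin and CBP, its coactivator. Tumours were taken on day 4, when dosing had lasted 3 days, or on day 8, when it had lasted 7, which gives 6 groups of 4 RNA-seq libraries. The labels do not say whether the 4 libraries of a group came from separate animals, or from how many donor tumours, so the p-values reflect variation among libraries that could be technical.

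Wnt1 lay between 57.6 and 257 TPM in the 24 libraries, and the 6 epithelial marker genes together between 2213 and 4542 TPM, as labelled for a Wnt1-driven mammary tumour. The files keep no read depth, so no counting interval is given for any value. In bulk tumour RNA, fewer cells of a type and less RNA per cell cannot be told apart.

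When the initiation factor eIF2 is phosphorylated by one of its stress-sensing kinases, most translation slows while that of the transcription factor ATF4 increases. ATF4 then drives genes for amino acid supply, for redox balance and for secreted stress signals, a programme called the integrated stress response. Each of the 4 genes is known as a target of this programme in some cell type. Adm2 (adrenomedullin 2, or intermedin) encodes a peptide hormone of the calcitonin family that signals through the receptor Calcrl together with a Ramp co-receptor. Stc2 encodes stanniocalcin 2, a secreted glycoprotein that inhibits the protease PAPP-A and so restrains the release of insulin-like growth factors from their binding proteins. Nupr1 encodes a small chromatin-associated protein induced by many stresses, and Gdf15 a cytokine of the TGF-β family whose receptor Gfral is known from the hindbrain.

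In the GENCODE annotation of GRCm38, Adm2 (ENSMUSG00000054136) lies on the plus strand at chr15:89322720-89324731. Stc2 (ENSMUSG00000020303) lies on the minus strand at chr11:31357307-31370074, Nupr1 (ENSMUSG00000030717) on the minus strand at chr7:126623249-126630861, and Gdf15 (ENSMUSG00000038508) on the minus strand at chr8:70629393-70632456. In this annotation, which holds 47310 of the 47729 gene IDs, none of the 4 overlaps another gene of the table. The annotation used for counting is not given, so overlap there was not checked.

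All 4 genes have promoter windows in the RefSeq annotation of GRCm38.p6, with Gdf15 in 2 windows and the others in 1 each. The windows are shown because the 4 genes were chosen for a shared pattern and because ATF4 and its partners bind DNA at known motifs. Each runs from 250 bases before to 50 bases after the annotated start, 5′ to 3′ on the gene's own strand, and capitals mark a match to the core of the C/EBP-ATF response element (TGATGNAA, or TTNCATCA on the other strand). In order, they are chr15:89322470-89322769 (plus strand), chr11:31370012-31370311 (minus strand), chr7:126625421-126625720 (minus strand) and, for the upstream window of Gdf15, chr8:70632407-70632706 (minus strand).
Adm2: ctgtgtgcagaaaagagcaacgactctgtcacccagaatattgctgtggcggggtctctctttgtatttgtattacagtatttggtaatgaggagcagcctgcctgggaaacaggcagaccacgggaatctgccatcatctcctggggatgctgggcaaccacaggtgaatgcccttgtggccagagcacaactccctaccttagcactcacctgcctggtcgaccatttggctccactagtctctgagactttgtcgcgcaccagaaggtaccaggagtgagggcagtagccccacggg
Stc2: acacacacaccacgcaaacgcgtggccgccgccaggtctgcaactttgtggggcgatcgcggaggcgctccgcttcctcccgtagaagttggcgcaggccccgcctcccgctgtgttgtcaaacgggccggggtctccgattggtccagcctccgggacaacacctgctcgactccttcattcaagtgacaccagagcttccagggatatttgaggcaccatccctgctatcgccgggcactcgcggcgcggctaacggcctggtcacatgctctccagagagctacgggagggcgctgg
Nupr1: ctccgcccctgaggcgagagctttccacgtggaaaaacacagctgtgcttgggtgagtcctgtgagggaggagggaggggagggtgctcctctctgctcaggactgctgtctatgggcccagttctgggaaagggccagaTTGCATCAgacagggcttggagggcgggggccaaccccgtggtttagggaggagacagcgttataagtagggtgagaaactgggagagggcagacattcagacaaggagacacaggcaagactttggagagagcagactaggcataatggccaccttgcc
Gdf15: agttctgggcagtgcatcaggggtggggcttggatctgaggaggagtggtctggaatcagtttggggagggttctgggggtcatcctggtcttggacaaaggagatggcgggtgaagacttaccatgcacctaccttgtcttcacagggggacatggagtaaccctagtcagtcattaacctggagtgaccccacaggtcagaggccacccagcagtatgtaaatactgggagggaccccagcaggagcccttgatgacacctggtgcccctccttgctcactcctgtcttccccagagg
The core was found once, in the Nupr1 window, as TTGCATCA at chr7:126625573-126625580, where its first base on the gene's strand lies 110 bases before the start. That RefSeq start, chr7:126625470, lies inside the GENCODE gene given above, whose 5′ end is chr7:126630861. No window was searched at that end. Of 32851 promoter windows of the same length, 3.97% hold that core on either strand. The other motifs searched on both strands were the cAMP response element palindrome TGACGTCA (1.79% of windows), the ATF core site TGACG, which the palindrome contains (20.8%), the ER stress response element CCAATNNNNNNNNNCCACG (0.119%) and the TATA hexamer TATAAA (13.6%). None of these was found in any of the 5 windows of the 4 genes, the downstream Gdf15 window included. The absence of a match says only that these letters are not in these windows.

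At 50 mg/kg on day 4, Adm2, Stc2 and Nupr1 stood above every same-day vehicle library, and Gdf15 did so in 3 of its 4 libraries. The ratios of mean TPM at 50 mg/kg over vehicle were 15.1 for Adm2, 7.30 for Stc2, 4.11 for Nupr1 and 2.02 for Gdf15. As background for these descriptive counts, 10.4% of all genes tested had every 50 mg/kg library above every vehicle library on day 4, and 9.26% passed an adjusted p of 0.05 in limma's test in either direction.

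**Figure D1:**
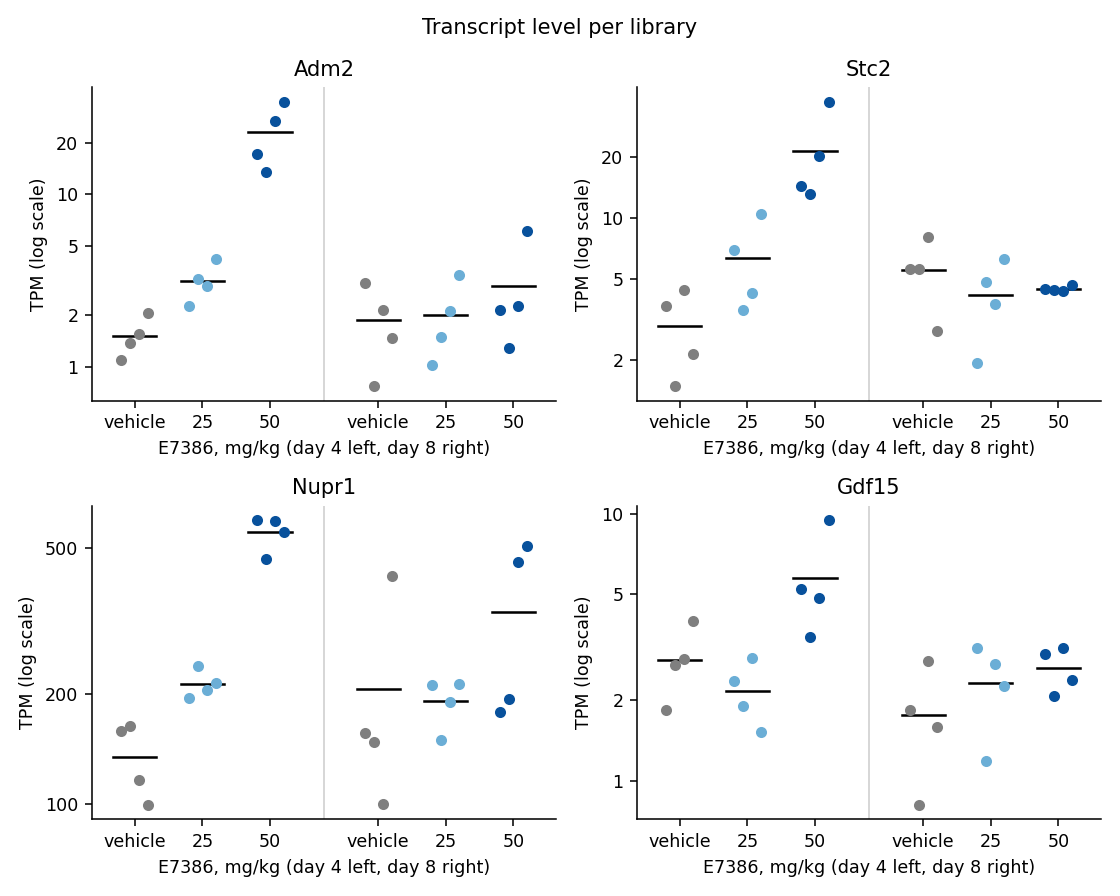
TPM (log scale) of the 4 genes in each of the 24 libraries (points, in replicate order) by dose, day 4 left and day 8 right; horizontal lines are group means. Adm2 and Stc2 at 50 mg/kg on day 4 lie above all other libraries, while Nupr1 at 50 mg/kg on day 8 splits into 2 low and 2 high libraries and Gdf15 stays under 10 TPM throughout.

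The Adm2 peptide hormone gene had 17.18, 13.49, 26.65 and 34.59 TPM in the 4 libraries at 50 mg/kg on day 4 (replicates 1 to 4), against 1.09, 1.38, 1.55 and 2.05 TPM in the vehicle libraries of that day. The groups did not overlap, and the lowest library at 50 mg/kg was above every library of the other 5 groups. The fitted log2 difference was 3.18 (SE 0.33, on log2(TPM + 1)), the second highest of 15736 genes.

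The stanniocalcin gene Stc2 had 14.48, 13.20, 20.31 and 37.64 TPM at 50 mg/kg on day 4, against 3.70, 1.48, 4.41 and 2.14 TPM in vehicle, again without overlap. Its fitted log2 difference was 2.46 (SE 0.35). Here too all 4 libraries lay above those of the other 5 groups, with replicate 4 well above the others. The share of all genes with this pattern was not counted. Adm2 and Stc2 were chosen partly on this group, so nothing is read from it.

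Nupr1, by far the most abundant transcript of the 4 in TPM, had 597.67, 466.80, 595.85 and 555.64 TPM at 50 mg/kg on day 4, against 159.09, 163.77, 116.48 and 99.64 TPM in vehicle. The group was tight, with a mean of 554 ± 61.3 TPM at 50 mg/kg and 135 ± 31.6 TPM in vehicle (SD, n = 4 each). The fitted log2 difference was 2.06 (SE 0.34).

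Gdf15 stood out least of the 4 genes. This cytokine gene had 5.24, 3.45, 4.84 and 9.51 TPM at 50 mg/kg on day 4, against 1.84, 2.72, 2.86 and 3.96 TPM in vehicle. Replicate 2 at 50 mg/kg lay below replicate 4 of vehicle, so the groups overlapped, and the fitted log2 difference was 0.77 (SE 0.26), at rank 305 of 15736 genes, against ranks 2, 7 and 10 for Adm2, Stc2 and Nupr1. The 25 mg/kg libraries of day 4 had 2.36, 1.91, 2.88 and 1.52 TPM of Gdf15.

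Replicate 4 at 50 mg/kg on day 4 had the highest Adm2, Stc2 and Gdf15 of its group, and replicate 2 had the lowest value of all 4 genes. Replicate 4 also had summed skeletal muscle markers of 471.67 TPM, against 6.78 to 66.36 TPM in the other libraries of its group, and erythroid markers of 89.94 TPM against 2.16 to 11.64 TPM. Without replicate 4 the log2 differences from vehicle were 2.96 for Adm2, 2.16 for Stc2, 2.05 for Nupr1 and 0.53 for Gdf15. None of the 4 differences changed sign without it, and the part of muscle or blood cells was not tested.

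After 7 days at 50 mg/kg, Adm2, Stc2 and Nupr1 stood closer to vehicle than after 3 days. Their fitted log2 differences were 0.40, -0.19 and 0.76 on day 8, and 3.18, 2.46 and 2.06 on day 4. For Gdf15 it was 0.44 on day 8 and 0.77 on day 4, a change within its standard error. The mean TPM at 50 mg/kg on day 8 was 0.129 of that on day 4 for Adm2, 0.209 for Stc2, 0.461 for Gdf15 and 0.606 for Nupr1. For Adm2, Stc2 and Gdf15, every day 8 library at 50 mg/kg lay below every day 4 library at that dose, a pattern shared by 7.45% of all genes tested. The test of 50 mg/kg against vehicle on day 8 called 2.78% of genes, and that of the difference between days called 1.44%, both in either direction; since the 4 genes were chosen with these contrasts, nothing is read from their own counts.

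Adm2 had 2.15, 1.28, 2.25 and 6.17 TPM at 50 mg/kg on day 8, against 3.06, 0.77, 2.14 and 1.48 TPM in vehicle. The groups overlapped, and only replicate 4 at 50 mg/kg exceeded all vehicle libraries. The fitted log2 difference from vehicle was 0.40 (SE 0.33) on day 8, and day 8 minus day 4 was -2.78 (SE 0.47).

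Stc2 had 4.46, 4.41, 4.38 and 4.66 TPM at 50 mg/kg on day 8, against 5.64, 5.65, 8.08 and 2.78 TPM in vehicle. The 4 libraries at 50 mg/kg were almost equal (4.48 ± 0.126 TPM) and 3 of the 4 vehicle libraries (5.54 ± 2.17 TPM; SD, n = 4 each) lay above them. Day 8 vehicle was also higher than day 4 vehicle, at 2.93 ± 1.36 TPM, with a log2 difference of 0.73 (SE 0.35). The log2 difference of 50 mg/kg from vehicle was -0.19 (SE 0.35) on day 8, and day 8 minus day 4 was -2.65 (SE 0.49), so for Stc2 a higher vehicle level on day 8 adds to the smaller difference, beside the lower level at 50 mg/kg.

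Nupr1 had the largest of the 4 log2 differences on day 8. It had 179.07, 194.07, 460.27 and 509.30 TPM at 50 mg/kg on day 8, against 156.61, 148.23, 100.58 and 421.26 TPM in vehicle. Both groups were split: replicates 3 and 4 at 50 mg/kg and replicate 4 of vehicle lay at 421 to 509 TPM, and the other 5 libraries at 101 to 194 TPM. The log2 difference was 0.76 (SE 0.34) with all libraries. It was 1.17 when vehicle replicate 4 was left out, 0.49 when vehicle replicate 3 was, and 0.51 when replicate 4 of the 50 mg/kg group was. Vehicle Nupr1 was also higher on day 8, with a mean of 207 TPM (median 152) against 135 TPM (median 138) on day 4. Day 8 minus day 4 was -1.30 with all libraries and -0.88 without vehicle replicate 4 of day 8.

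The vehicle replicate with high Nupr1 also had the highest summed neutrophil markers of the 24 libraries, 325.66 TPM against 30.90 to 60.47 TPM in the other 3 of its group. The next highest sum, 286.17 TPM, was in replicate 1 of the 25 mg/kg group of day 4 (45.43 to 68.94 TPM in the other 3 of that group), which had the lowest Nupr1 of its group, 194.99 TPM. Among the 50 mg/kg libraries of day 8, neutrophil markers were 95.95 and 87.48 TPM in the 2 with high Nupr1, and 19.09 and 83.75 TPM in the 2 with low Nupr1. All 3 neutrophil markers were detected in every group, and their part in the Nupr1 values was not tested.

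Gdf15 had 3.00, 2.08, 3.16 and 2.38 TPM at 50 mg/kg on day 8, against 1.85, 0.81, 2.81 and 1.59 TPM in vehicle. The groups overlapped, and 14 of the 16 pairs of libraries had the higher value at 50 mg/kg. The share of all genes with such a count was not taken, and nothing is read from it. Its log2 difference was 0.44 (SE 0.26) on day 8 and day 8 minus day 4 was -0.33 (SE 0.36), less than its standard error. Thus the lower Gdf15 level at 50 mg/kg on day 8 came with a lower vehicle level too, 1.77 ± 0.825 TPM on day 8 and 2.85 ± 0.870 TPM on day 4 (SD, n = 4 each), and the change in its difference from vehicle was within its error. Without single libraries, day 8 minus day 4 ranged from -0.51 to -0.090 for Gdf15. It moved by over 1.5 times without vehicle replicate 2 of day 8 (-0.51), 50 mg/kg replicate 2 of day 4 (-0.50), vehicle replicate 1 of day 4 (-0.19), vehicle replicate 3 of day 8 (-0.16) or 50 mg/kg replicate 4 of day 4 (-0.090).

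**Figure D2:**
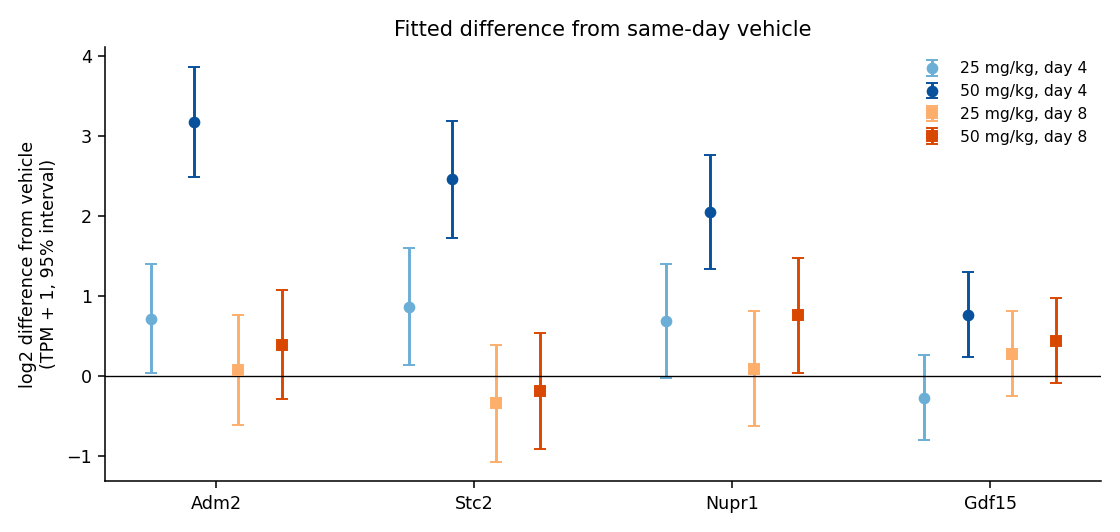
Fitted log2 differences from same-day vehicle on log2(TPM + 1), with 95% intervals from limma, at 25 and 50 mg/kg on day 4 (circles) and day 8 (squares). On day 4 the 50 mg/kg points run from 3.18 for Adm2 down to 0.77 for Gdf15, and on day 8 all lie between -0.19 and 0.76.

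The difference of 25 mg/kg from vehicle was not itself a criterion for the 4 genes, and it was tested. The rule did read the TPM of all 6 groups, however, and the vehicle libraries were the same. These p-values are therefore not independent of the choice of the genes, and nothing beyond the values is read from them. By limma, with Benjamini-Hochberg adjustment over 15736 genes, 0.0% of genes passed at 25 mg/kg on day 4, on day 8 or for the difference between the days; 724, 468 and 810 genes had an unadjusted p under 0.05. None of the 4 genes passed in any of these 3 comparisons.

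On day 4 at 25 mg/kg, Adm2 had 2.26, 3.23, 2.93 and 4.24 TPM, against 1.09 to 2.05 TPM in vehicle, and Nupr1 had 194.99, 239.43, 205.12 and 214.83 TPM, against 99.64 to 163.77 TPM. Both groups were free of overlap, as for 3.06% of all genes in this direction. Stc2 had 7.01, 3.53, 4.27 and 10.52 TPM, which overlapped vehicle. Gdf15, at 1.52 to 2.88 TPM, overlapped vehicle and had the lower mean.

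The log2 differences of 25 mg/kg from vehicle on day 4 were 0.72 for Adm2 (95% interval 0.03 to 1.40), 0.87 for Stc2 (0.14 to 1.60), 0.69 for Nupr1 (-0.03 to 1.40) and -0.27 for Gdf15 (-0.80 to 0.26). Unadjusted p-values from limma were 0.0404, 0.0215, 0.0581 and 0.302, and the adjusted p was 0.914 for the first 3 and 0.918 for Gdf15. For Adm2, Stc2 and Nupr1 the intervals allow up to a 1.40 or 1.60 log2 difference, and at 50 mg/kg the fitted values lay above those bounds.

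On day 8 at 25 mg/kg, Adm2 had 1.02, 1.5, 2.10 and 3.39 TPM, Stc2 1.93, 4.82, 3.76 and 6.28 TPM, Nupr1 211.83, 150.0, 189.93 and 213.38 TPM and Gdf15 3.15, 1.19, 2.74 and 2.26 TPM. All 4 overlapped their vehicle libraries. The log2 differences were 0.07 for Adm2 (95% interval -0.61 to 0.76), -0.34 for Stc2 (-1.07 to 0.39), 0.10 for Nupr1 (-0.62 to 0.81) and 0.28 for Gdf15 (-0.25 to 0.81), each with an adjusted p of 1 by limma. Day 8 minus day 4 at this dose was -0.64, -1.21, -0.59 and 0.55 in the same order of genes, with adjusted p between 0.897 and 0.899.

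Ordered by mean TPM, the day 4 group at 50 mg/kg was the highest of the 6 for each gene. For Adm2 it stood at 22.98 ± 9.52 TPM, clear of the next group, 25 mg/kg on day 4 at 3.17 ± 0.823 TPM, and every further pair of neighbours in the order overlapped down to vehicle on day 4 at 1.52 ± 0.403 TPM. For Stc2 it stood at 21.4 ± 11.3 TPM, clear of 25 mg/kg on day 4 at 6.33 ± 3.17 TPM, and all later neighbours overlapped.

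For Nupr1 the order ran from 50 mg/kg on day 4 to 50 mg/kg on day 8 (336 ± 173 TPM), 25 mg/kg on day 4 (214 ± 19.0 TPM), vehicle on day 8 (207 ± 145 TPM), 25 mg/kg on day 8 (191 ± 29.5 TPM) and vehicle on day 4, and each group overlapped the next. For Gdf15 it ran from 50 mg/kg on day 4 (5.76 ± 2.62 TPM) to vehicle on day 4 (2.85 ± 0.870 TPM), 50 mg/kg on day 8 (2.66 ± 0.51 TPM), 25 mg/kg on day 8 (2.34 ± 0.846 TPM), 25 mg/kg on day 4 (2.17 ± 0.586 TPM) and vehicle on day 8, with overlap at each step (SD, n = 4 for every group). In every group, Nupr1 had the highest mean TPM of the 4 genes.

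The 4 genes did not vary as a unit within groups. Across the 24 libraries, the deviations of log2(TPM + 1) from the group means had a Pearson r of 0.45 between Adm2 and Stc2 and 0.39 between Adm2 and Gdf15. The other pairs were lower: 0.23 for Adm2 with Nupr1, 0.09 for Stc2 with Gdf15, -0.06 for Nupr1 with Gdf15 and -0.31 for Stc2 with Nupr1. These are descriptions over libraries that share their scaling to a fixed total.

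The deviations were also set against the mean log2 level of 27 other genes of the integrated stress response. That mean was 6.04, 5.84, 6.14 and 6.49 at 50 mg/kg on day 4 (replicates 1 to 4), against 4.87, 4.75, 4.87 and 4.85 in vehicle, and 5.11, 4.82, 5.05 and 5.26 at 50 mg/kg on day 8, against 4.94, 4.71, 4.85 and 4.77 in vehicle. Like Adm2, Stc2 and Gdf15, it was highest in replicate 4 and lowest in replicate 2 of the day 4 group at 50 mg/kg. Within groups, r with this mean was 0.73 for Adm2, 0.64 for Gdf15, 0.51 for Stc2 and 0.15 for Nupr1.

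**Figure D3:**
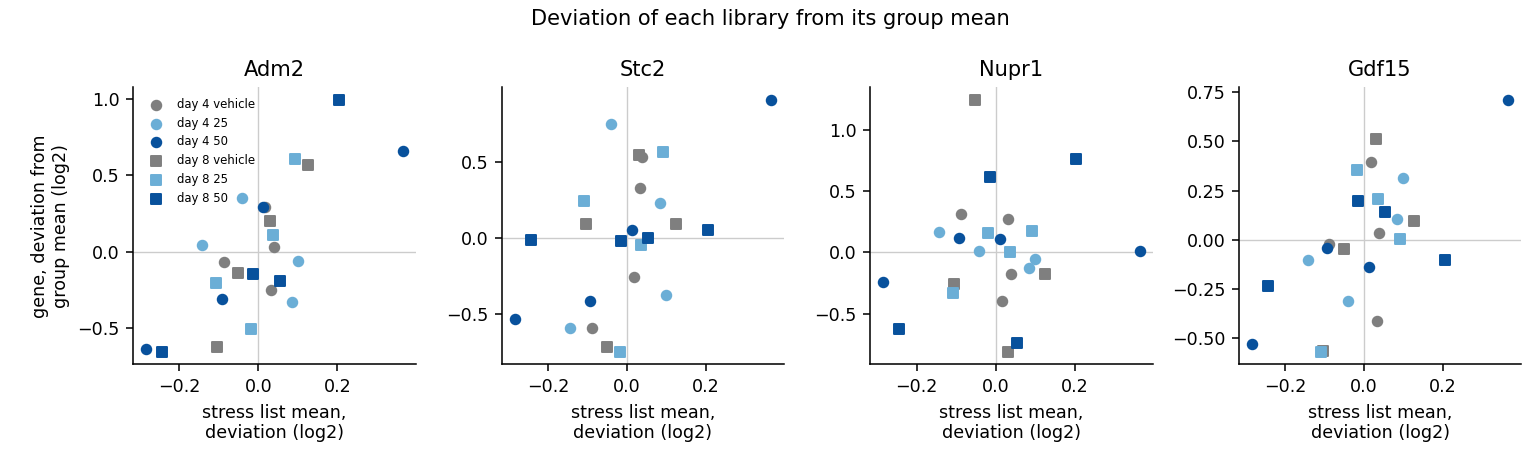
Deviation of each library's log2(TPM + 1) from its group mean (vertical) against the deviation of the mean log2 level of 27 stress response genes (horizontal); circles are day 4, squares day 8, and colours mark vehicle, 25 and 50 mg/kg. Adm2 (r = 0.73) and Gdf15 (r = 0.64) run along the diagonal. For Nupr1 (r = 0.15), vehicle replicates 3 and 4 and 50 mg/kg replicates 1 and 3 of day 8 lie off it. The 50 mg/kg replicates 2 and 4 of day 8 lie along it.

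Other lists moved with single members within groups, again as descriptions over 24 libraries. Adm2 had r = 0.69 with the mean level of 10 hypoxia genes, -0.60 with macrophage markers and -0.55 with fibroblast markers. Stc2 had r = -0.77 with 11 p53 target genes and 0.51 with the hypoxia genes. Between groups, the hypoxia genes went the other way from Adm2 and Stc2. At 50 mg/kg on day 4 their median log2 difference from vehicle was -0.92, with Adm2 at 3.18 and Stc2 at 2.46. Nupr1 had r = 0.63 with neutrophil markers and 0.52 with the tested receptor, paralog and substrate genes described below. Gdf15 had r = 0.59 with skeletal muscle markers. The part of other cell types in these values was not tested.

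The genes most like each member over the 24 libraries, among 11149 genes reaching a mean of 5 TPM in some group, were taken by Pearson r of log2(TPM + 1), which the group differences dominate. For Adm2 they were the seryl-tRNA synthetase gene Sars (r = 0.965), the translation repressor gene Eif4ebp1 (0.953) and the asparaginyl-tRNA synthetase gene Nars (0.947). For Stc2 they were the initiation factor gene Eif3c (0.910), the stress pseudokinase gene Trib3 (0.908) and the chloride channel protein gene Clic4 (0.889). For Gdf15 they were Hax1 (0.876), the eIF2 β subunit gene Eif2s2 (0.866) and Utp14a (0.856).

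For Nupr1 they were the GTP cyclohydrolase gene Gch1 (r = 0.937), Lypd6b (0.930) and the glucosaminyltransferase gene Gcnt2 (0.925). Its r with each of these was nearly as high for the deviations within groups, at 0.931, 0.920 and 0.923. By deviations alone, the nearest genes were the tetraspanin gene Tspan1 (0.965), the serine protease gene Prss27 (0.953) and the endothelin-converting enzyme gene Ece1 (0.952). For Adm2 the nearest by deviations were the glycolysis genes Aldoa (0.890) and Pgk1 (0.843) and Lgalsl (0.818), for Stc2 D8Ertd82e (0.827), the growth factor receptor gene Fgfr3 (0.808) and the histone gene Hist1h4i (0.803), and for Gdf15 the CTP synthase gene Ctps (0.869), Dcun1d5 (0.802) and Nol11 (0.785). Likeness by deviations leaves out the group means, where Aldoa and Pgk1 went the other way from Adm2. At 50 mg/kg on day 4, mean Aldoa was 491 TPM, against 750 TPM in vehicle, and mean Pgk1 138 TPM, against 260 TPM. Mean Lgalsl was 74.6 and 72.6 TPM. Leaving out the 2 libraries farthest from the member's median gave r between 0.764 and 0.939 for the first kind of likeness and 0.686 and 0.956 for the second.

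Tspan1 showed the same split on day 8 as Nupr1. It had 5.84, 6.46, 27.65 and 33.46 TPM at 50 mg/kg, against 7.67, 4.61, 3.71 and 24.92 TPM in vehicle. Prss27 had 18.71, 17.98, 67.31 and 79.14 TPM at 50 mg/kg, against 21.58, 14.06, 13.38 and 61.71 TPM in vehicle. The high libraries were the same 3 as for Nupr1, replicates 3 and 4 at 50 mg/kg and replicate 4 of vehicle. Since Tspan1 and Prss27 were picked for deviations like those of Nupr1, this match follows from the choice. On day 4 the levels were less alike, since Nupr1 had 554 ± 61.3 TPM at 50 mg/kg and 214 ± 19.0 TPM at 25 mg/kg, while Tspan1 had 13.0 ± 3.14 TPM at 50 mg/kg and 13.3 ± 1.83 TPM at 25 mg/kg (SD, n = 4 each).

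**Figure D4:**
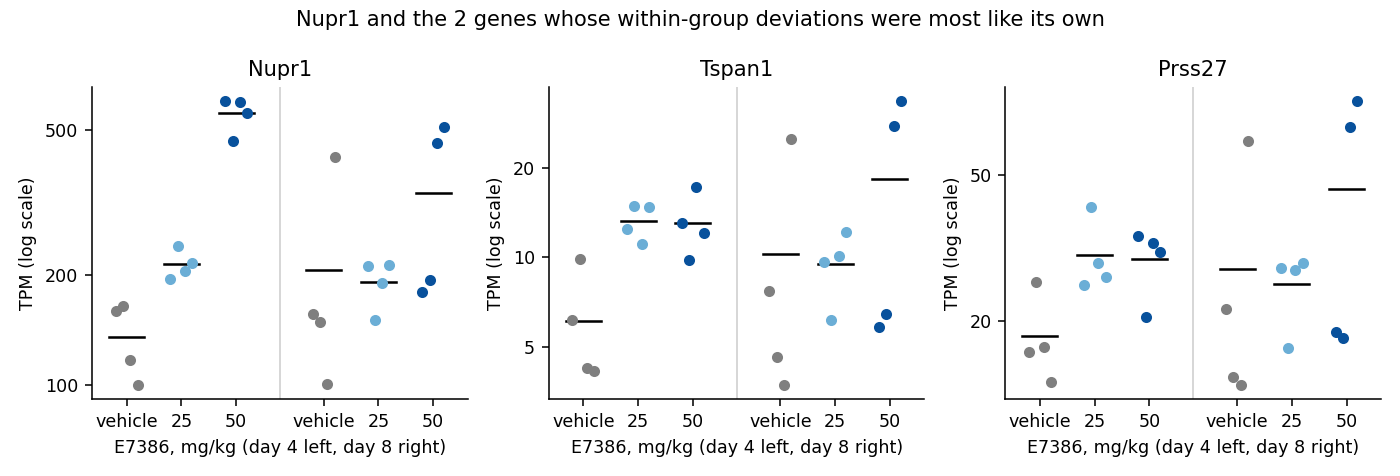
TPM (log scale) of Nupr1, Tspan1 and Prss27 in each library (points, in replicate order) by dose, day 4 left and day 8 right; lines are group means. The 2 high and 2 low libraries at 50 mg/kg on day 8 and the single high vehicle library are the same in the 3 panels, while Nupr1 at 50 mg/kg on day 4 lies above 25 mg/kg and the other 2 genes do not. Tspan1 and Prss27 were picked for deviations like those of Nupr1.

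The receptors, paralogs and substrates that go with the 4 proteins made a list of 20 genes, of which 13 passed the filter. At 50 mg/kg on day 4, 1 of the 13 was higher and none lower by limma after adjustment over all genes, with 3 at an unadjusted p under 0.05 and a median log2 difference of 0.12 against 0.03 over all genes. On day 8, 2 of 13 were lower and none higher, with a median of -0.26 against -0.02. At 25 mg/kg none of the 13 passed on either day, with 0 and 1 at an unadjusted p under 0.05. Of all genes, 9.26% and 2.78% were called at 50 mg/kg on these days, and nothing particular to the list is read from its counts.

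Ramp3, the co-receptor gene that with Calcrl makes an adrenomedullin receptor, was called on both days, higher at 50 mg/kg on day 4 and lower on day 8. It had 2.76, 3.3, 4.28 and 4.00 TPM at 50 mg/kg on day 4, against 1.40, 2.81, 3.03 and 1.71 TPM in vehicle, which overlapped, with a log2 difference of 0.52 (SE 0.16, adjusted p = 0.0442). On day 8 it had 1.48, 1.43, 1.04 and 1.07 TPM at 50 mg/kg, against 2.77, 2.32, 2.28 and 3.3 TPM in vehicle, without overlap, and fell by 0.70 on the log2 scale (SE 0.16, adjusted p = 0.0203). The difference between the days was -1.22 (SE 0.23, adjusted p = 0.00802). The day 4 call was lost under 10 of its 16 alternatives, among them leaving out vehicle replicate 1 (0.39, adjusted p = 0.15), vehicle replicate 4 or 50 mg/kg replicate 2, 3 or 4. Leaving out vehicle replicate 1 (adjusted p = 0.0636) or replicate 3 at 50 mg/kg (0.0769) ended the day 8 call, as did fitting the compared groups alone (0.145), and the difference between the days passed under all alternatives run.

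The rest of the Adm2 receptor showed no call. Calcrl had 2.70 ± 0.735 TPM at 50 mg/kg and 3.65 ± 0.962 TPM in vehicle on day 4 (log2 difference -0.33, adjusted p = 0.355), and 2.0 ± 0.518 TPM at 50 mg/kg and 2.88 ± 1.24 TPM in vehicle on day 8 (-0.33, adjusted p = 0.441). Ramp1 differed from vehicle by 0.10 on day 4 and 0.32 on day 8, and Ramp2 by -0.01 and -0.26; Ramp2 overlaps the more abundant gene Vps25 on the same strand, so its value is uncertain.

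Adm, the adrenomedullin paralog of Adm2, was not called on either day. It had 5.04 ± 3.3 TPM at 50 mg/kg and 6.95 ± 2.70 TPM in vehicle on day 4 (log2 difference -0.47, adjusted p = 0.447), and 3.70 ± 1.66 TPM at 50 mg/kg and 9.91 ± 6.32 TPM in vehicle on day 8 (-1.14, adjusted p = 0.0996; SD, n = 4 each). Adm was the more abundant of the pair in vehicle and Adm2 at 50 mg/kg on day 4. The calcitonin family genes Calca, Calcb and Iapp and the calcitonin receptor gene Calcr stayed at or under 0.54 TPM in every library and were not tested.

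Among the Stc2 partners, its paralog Stc1 had 4.73, 5.82, 8.78 and 8.00 TPM at 50 mg/kg on day 4, against 5.84, 5.71, 7.64 and 6.93 TPM in vehicle (log2 difference 0.03, adjusted p = 0.932). On day 8 it had 3.51, 4.15, 3.81 and 4.03 TPM at 50 mg/kg, against 7.08, 9.20, 6.10 and 8.33 TPM in vehicle, without overlap, and fell by 0.82 on the log2 scale (SE 0.17, adjusted p = 0.0128). This call was lost without vehicle replicate 2 (adjusted p = 0.0541) and with the compared groups fitted alone (adjusted p = 0.107). Both stanniocalcin genes were thus within 3.51 to 4.66 TPM in all 4 libraries at 50 mg/kg on day 8.

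Pappa, the gene of the protease that stanniocalcin 2 inhibits, had 40.6 ± 8.85 TPM at 50 mg/kg and 28.2 ± 5.21 TPM in vehicle on day 4 (log2 difference 0.51, adjusted p = 0.120), and 28.3 ± 6.91 TPM at 50 mg/kg and 32.8 ± 7.34 TPM in vehicle on day 8 (-0.21, adjusted p = 0.629). Its homologue Pappa2 stayed at or under 0.44 TPM. The protease substrates Igfbp4 (0.24 on day 4, 0.20 on day 8) and Igfbp5 (-0.66, adjusted p = 0.153, and -0.21) did not pass, nor did the ligands Igf1 (0.51 and 0.66) and Igf2 (0.53 and 0.56) or the receptor gene Igf1r (0.28 and -0.31), all as log2 differences from vehicle. Igfbp5 on day 4 did pass under 2 of its 17 alternatives.

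**Figure D5:**
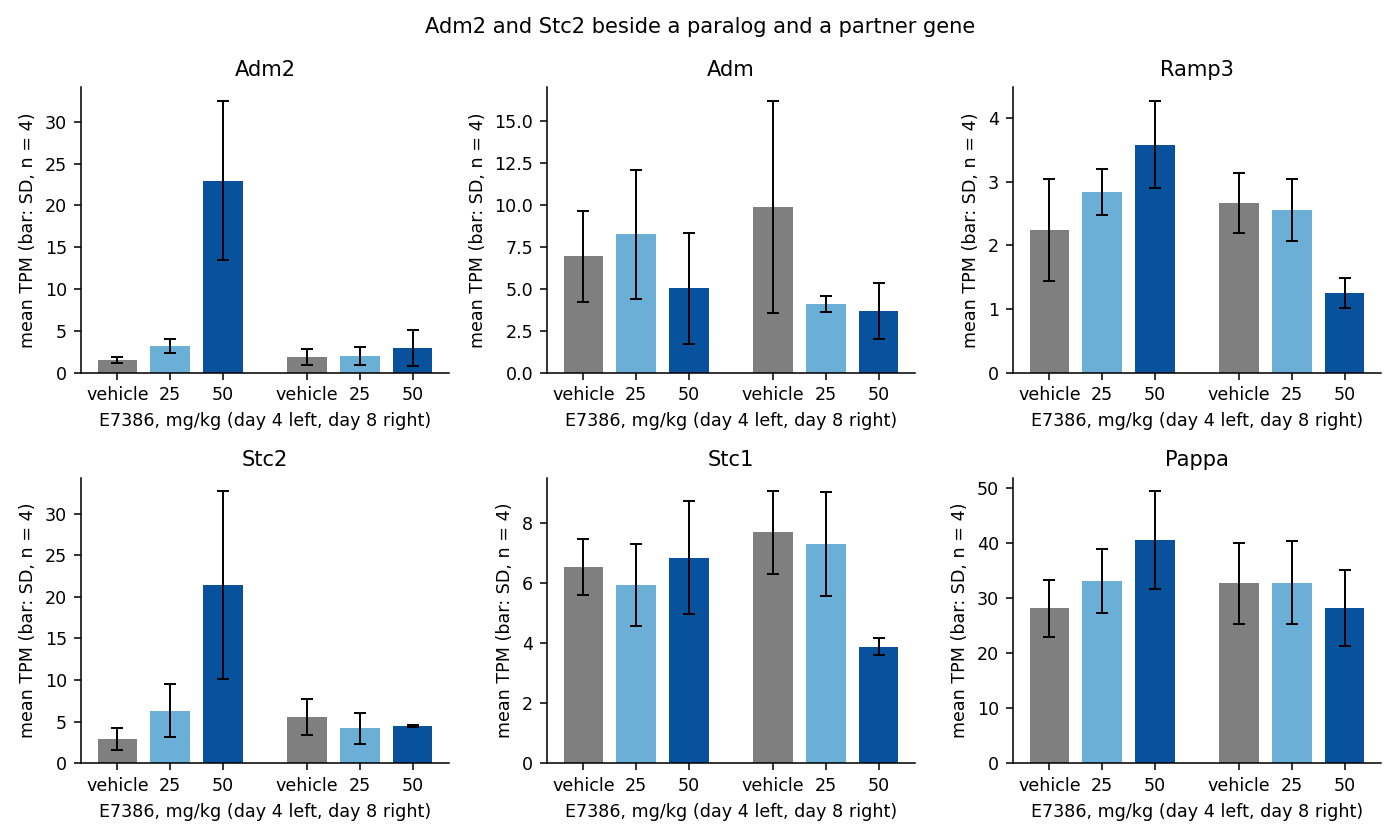
Mean TPM (bars from 0; error bars SD, n = 4) of Adm2, its paralog Adm and co-receptor gene Ramp3 (top), and of Stc2, its paralog Stc1 and target protease gene Pappa (bottom), by dose on day 4 (left) and day 8 (right). Adm2 and Stc2 peak at 50 mg/kg on day 4, while Ramp3 and Stc1 are lowest at 50 mg/kg on day 8.

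For Gdf15, the receptor gene Gfral was listed at 0 in all 24 libraries, and its co-receptor gene Ret lay between 0.17 and 1.35 TPM and was not tested. The Nupr1 paralog Nupr1l (Nupr2) had 1.29 ± 0.38 TPM at 50 mg/kg and 1.12 ± 0.429 TPM in vehicle on day 4 (log2 difference 0.12, adjusted p = 0.682), and 1.08 ± 0.136 TPM at 50 mg/kg and 1.53 ± 0.419 TPM in vehicle on day 8 (-0.27, adjusted p = 0.404).

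Most other listed genes of the integrated stress response rose at 50 mg/kg on day 4. Of 28 listed genes outside the 4, 27 were tested and 22 passed upward, with none lower and a median log2 difference of 1.11 against 0.03 over all genes. Of all genes tested, 9.26% were called in this comparison, in either direction. This list was chosen with earlier results of these data known and is not independent evidence of its direction. The largest were the glycine transporter gene Slc6a9 (3.13), the asparagine synthetase gene Asns (2.66), the transcription factor gene Atf5 (2.64) and the glutathione-degrading enzyme gene Chac1 (2.56), with adjusted p of at most 0.00041 by limma. Adm2 (3.18) and Stc2 (2.46) had differences of that size, whereas Gdf15 (0.77) lay under the list's median.

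Atf4 itself had a log2 difference of 0.35 (adjusted p = 0.104). On day 8, 5 of the 27 were higher and 1 lower than vehicle, with a median of 0.22 against -0.02 over all genes, and for 14 of the 27 the difference on day 8 was below that on day 4 by the test of the difference (median -0.98). Over all genes, 2.78% were called on day 8 and 1.44% for the difference between the days, both in either direction. Asns (1.04, adjusted p = 0.00109) and Slc6a9 (1.10, adjusted p = 0.019) were still higher on day 8, where Adm2 and Stc2 stood at 0.40 and -0.19. With vehicle replicate 1 left out 2 of the 27 passed on day 8, with vehicle replicate 2 left out 3, and with 50 mg/kg replicate 3 left out 2.

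None of the 4 eIF2 kinase genes passed at 50 mg/kg on either day, with 0 and 1 at an unadjusted p under 0.05; Eif2ak3, the endoplasmic reticulum kinase, had 0.17 (adjusted p = 0.351) and Eif2ak1, the haem-regulated kinase, 0.06 (adjusted p = 0.474) on day 4. Of 11 p53 target genes, Trp53inp1 passed on day 4 (0.45, adjusted p = 0.0188) and none on day 8, where 2 had an unadjusted p under 0.05; the call of Trp53inp1 was lost without vehicle replicate 1 or 3 or 50 mg/kg replicate 1 or 3. Of 10 hypoxia genes, 7 fell on day 4 (median -0.92), led by Ankrd37 (-1.89), Car9 (-1.30), Bnip3 (-1.26) and Egln3 (-1.23), and all 10 on day 8 (median -1.14). With the compared groups fitted alone, 3 of the 10 passed on day 8. Over all genes, beside these 3 lists, 9.26% were called on day 4 and 2.78% on day 8, in either direction. The medians over all genes were 0.03 and -0.02. At 25 mg/kg none of the stress response, eIF2 kinase, p53 and hypoxia genes passed on either day; 7, 0, 1 and 0 of them had an unadjusted p under 0.05 on day 4 and 7, 0, 3 and 7 on day 8. Atf5, Slc6a9, Eif2ak1, Ankrd37 and Car9 overlap genes with a mean of at least 1 TPM on the opposite strand, so their values are uncertain.

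Summed cell type markers were compared on day 4 by their ranges, with no test. Epithelial markers were 2867 to 2990 TPM at 50 mg/kg and 2213 to 2772 TPM in vehicle, without overlap, while the ranges of the 8 other marker lists overlapped between the groups. Macrophage markers were 864 to 2149 TPM at 50 mg/kg and 578 to 1344 TPM in vehicle. Endothelial markers were 105 to 132 TPM at 50 mg/kg and 97.1 to 121 TPM in vehicle, and fibroblast markers 573 to 1211 TPM at 50 mg/kg and 580 to 1226 TPM in vehicle. Adipocyte markers were 3.11 to 253 TPM at 50 mg/kg and 1.23 to 82.3 TPM in vehicle, and T cell markers 0.38 to 2.19 TPM at 50 mg/kg and 0.35 to 0.68 TPM in vehicle. Erythroid markers were 2.16 to 89.9 TPM at 50 mg/kg and 52.0 to 62.7 TPM in vehicle, and neutrophil markers 10.1 to 43.8 TPM at 50 mg/kg and 15.7 to 66.9 TPM in vehicle. Skeletal muscle markers were 6.78 to 472 TPM at 50 mg/kg and 5.36 to 124 TPM in vehicle. No marker was listed at 0 in all 4 libraries of any group. Within the day 4 group at 50 mg/kg, macrophage markers were highest in replicate 1 (2148.60 TPM) and lowest in replicate 4 (864.26 TPM), which had the most Adm2, Stc2 and Gdf15. The part of these cells in the values of the 4 genes was not tested.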

How the data were processed

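RNA-seq was made from 24 tumour libraries in 6 groups taken from the labels. Per the labels' protocols, RNA was column-purified (RNeasy) and 1 µg of total RNA went into each strand-specific SureSelect library. The tools named in the submitters' processing notes are STAR 2.5.0c, RSEM 1.2.31, Trimmomatic 0.36 and bcl2fastq, and the build is mm10 (GRCm38). Neither the annotation release nor the strand setting is given in the sources used here. The authors deposited 1 table of TPM values with 2 decimals for 47729 genes; each library sums to the same total (999999 to 1000001), so depth is unknown, no count test was possible, and a rise of abundant genes lowers all other values.

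From these values, log2(TPM + 1) was fitted for the 15736 genes with at least 1 TPM in at least 4 libraries, with limma 3.58.1 in R 4.3.3 (6 group means over all 24 libraries, empirical Bayes with intensity trend, 18 residual degrees of freedom). P-values are two-sided, adjusted by Benjamini-Hochberg over all genes tested, with a threshold of 0.05; adjusted p-values in the text are from this fit. Fold differences on this scale understate those of low genes. The steps were tested on simulated data. The 4 genes, the lists and the rule for named genes were chosen with earlier results of these data known. Named were the 4 genes, the partner genes that passed the filter, up to 4 called genes of each other list with the largest day 4 difference at 50 mg/kg (otherwise the 2 with the smallest p), and the 3 genes most like each of the 4 over libraries and by deviations; Ret, Gfral, Atf4, the calcitonin genes and Pappa2 were added after their values were seen. Alternatives were pseudocounts of 0.1 and 5, no filter, a filter at 5 TPM, TMM scaling computed on TPM, quantile normalization, limma library weights, a fit restricted to the groups compared, the replicate number as a block, and leaving out each library in turn.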

Additional observations from a re-analysis of the deposited data

Results flagged for a closer look

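None of the 4 genes had a library set apart from the other 3 of its group by Dixon's test at the 95% level, although Nupr1 in vehicle replicate 4 of day 8 and Adm2 at 50 mg/kg replicate 4 of day 8 stood apart to the eye. Among the 4 genes and the 13 partner genes, 102 gene and group combinations were examined and 9 held such a library; chance alone flags about 1 in 20. Adm had a high library at 50 mg/kg on day 4 (replicate 1, 9.97 TPM) and in vehicle on day 8 (replicate 4, 19.32 TPM). Ramp2 was high in vehicle replicate 1 of day 4 (31.07 TPM) and low at 25 mg/kg in replicate 2 of day 8 (17.41 TPM). Igfbp4 was high at 50 mg/kg in replicate 1 of day 8 (531.19 TPM), Igfbp5 at 50 mg/kg in replicate 2 of day 4 (613.85 TPM) and Igf1 at 50 mg/kg in replicate 1 of day 4 (35.33 TPM). Igf2 was low at 25 mg/kg in replicate 3 of day 4 (2.99 TPM) and high in vehicle replicate 4 of day 8 (8.38 TPM).

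The response of Ramp3 to 50 mg/kg differed between the days by limma's test of the difference itself, with day 8 minus day 4 at -1.22 on the log2 scale (adjusted p = 0.00802). The cause of these values was not tested.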

How the results depend on the processing

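Of 233 alternatives run for the 12 tested results of the 4 genes at 25 mg/kg, 0 passed an adjusted p of 0.05 by limma (lowest 0.189). The descriptive differences at 50 mg/kg kept their sign under every alternative, with these exceptions in size: a pseudocount of 5 gave 2.04 for Adm2 and 1.66 for Stc2 on day 4 and -1.85 and -1.79 for day 8 minus day 4, a pseudocount of 0.1 gave 3.77 for Adm2 on day 4, and library weights gave 1.29 for Nupr1 on day 8. A larger pseudocount shrinks the differences of low genes by construction. Without single libraries, the differences of 50 mg/kg from vehicle ranged on day 4 from 2.96 to 3.39 for Adm2, 2.16 to 2.64 for Stc2, 1.92 to 2.16 for Nupr1 and 0.53 to 0.95 for Gdf15, and on day 8 from 0.06 to 0.61, -0.43 to -0.01, 0.49 to 1.17 and 0.25 to 0.61. Day 8 minus day 4 then ranged from -3.11 to -2.56 for Adm2, -2.89 to -2.35 for Stc2 and -1.57 to -0.88 for Nupr1.

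Signs turned for differences near 0. With library weights Adm2 at 25 mg/kg on day 8 was at -0.070 and, at 50 mg/kg, Calcrl on day 8 at 0.052, Ramp1 on day 4 at -0.036, and Ramp2 at 0.011 on day 4 and 0.049 on day 8; Stc1 on day 4 was at -0.033 after quantile normalization. Without single libraries, the ranges that crossed 0 were -0.14 to 0.26 for Adm2 and -0.17 to 0.51 for Nupr1 at 25 mg/kg on day 8, and at 50 mg/kg -0.10 to 0.11 for Ramp2, -0.085 to 0.17 for Stc1 and -0.0002 to 0.24 for Nupr1l on day 4 and -0.083 to 0.35 for Igfbp4 on day 8.

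The count of called partner genes at 50 mg/kg on day 4 was 1, and 0 with a pseudocount of 0.1, no filter, a filter at 5 TPM, TMM scaling, quantile normalization or the compared groups alone, 2 with library weights and 0 to 1 without single libraries. On day 8 it was 2, and 1 with a filter at 5 TPM, 0 with the compared groups alone and 1 to 2 without single libraries. Some partner results at 50 mg/kg that were not called in the main fit passed by limma under alternatives. Igfbp5 on day 4 did so under 2 (lowest adjusted p = 0.0258) and Ramp1 on day 8 under 1 (0.0427). The difference between the days for Stc1 did so under 4 (lowest adjusted p = 0.0287). Called stress response genes on day 8 numbered 6, against 1 with the compared groups alone, 10 with library weights and 2 to 6 without single libraries. Library weights called 1 eIF2 kinase gene and 1 p53 target on day 8 and 3 p53 targets on day 4, where quantile normalization called 2, the compared groups alone 0 and single left-out libraries 0 to 1, against 1; 3 of 10 hypoxia genes were called on day 8 with the compared groups alone. Over all genes, 1457, 438 and 226 were called at 50 mg/kg on day 4, day 8 and for their difference, against 3205, 2888 and 745 with library weights, 12 on day 8 and 68 for the difference with the compared groups alone, and 699 to 1311, 180 to 1175 and 92 to 601 without single libraries. The cause of these changes was not tested.

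Same-numbered libraries of the compared groups correlated between -0.19 and 0.348 in their deviations, and 2, 1, 2 and 2 of 4 libraries correlated best with their own number. With so few libraries these values cannot decide whether the numbers pair the samples, and the main fit treats the libraries as unpaired. With the replicate block, the count of called partner genes on day 4 was 2, and no tested result of the 4 genes changed its call. Over all genes, the block gave 1558 calls at 50 mg/kg on day 4, 542 on day 8 and 343 for their difference. The main fit gave 1457, 438 and 226. Unknown depth limits all low values, among them those of Adm2 and Gdf15 in vehicle.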
